A study of Homo sapiens with 2 samples.

Results

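The interleukin-6 family was described in Calu-3 cells through 10 genes, listed by name for their roles in the pathway: the ligands IL6, LIF and IL11, the receptor chains IL6R, IL6ST, LIFR and OSMR, the kinase JAK1, the transcription factor STAT3 and its feedback inhibitor SOCS3. They are 10 of 19775 genes named on the array, and the platform annotation assigned 35 probe sets to them. Calu-3 is a lung adenocarcinoma cell line used as a model of the airway surface and its glands. The stretched culture was grown on flexible collagen type I plates and cyclically strained for 18 h (sine wave, minimum 0.7%, maximum 20%, with 2 s of strain followed by 2 s of rest). The non-stretched culture carries the same 18 h label without the cyclic stretch. Medium with 10% serum is given for both cultures. Each condition was measured on 1 array, so the differences given here compare 2 arrays, have no replicate check and no test, and are only as precise as a single array a condition allows. The plates were at about 80% confluence per the protocol, although the design text calls the cells confluent. It is a tumour line grown alone, without the fibroblasts and leukocytes that are sources of these cytokines in a lung.

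Cytokines of the interleukin-6 family signal through a shared receptor chain, gp130, which IL6ST encodes. Interleukin-6 and interleukin-11 bind their own receptor first and then pair gp130 with a second gp130, whereas leukaemia inhibitory factor (LIF) pairs gp130 with the LIF receptor and oncostatin M pairs it with either the LIF receptor or the oncostatin M receptor. The paired chains activate Janus kinases such as JAK1, which phosphorylate STAT3. Phosphorylated STAT3 enters the nucleus and induces target genes, among them SOCS3, whose product binds gp130 and the kinase and shuts the signal off. In airway epithelium the pathway is known for the acute phase response, for epithelial repair and for the induction of secretory proteins. An array of transcripts does not measure STAT3 phosphorylation.

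The 250 bases before the transcription start are shown for 4 of the genes: IL6 and IL11, ligands that differed in opposite directions, and STAT3 and SOCS3, a transcription factor and its target that also did. They come from RefSeq on GRCh38.p14, are written 5′ to 3′ on the strand of the gene, and stop before the first transcribed base. IL6 is on the plus strand at chr7:22726950-22727199, and IL11 on the minus strand at chr19:55370464-55370713. STAT3 is on the minus strand at chr17:42388443-42388692, and SOCS3 on the minus strand at chr17:78360926-78361175, its first listed start of 2. Capitals mark matches to any of 6 motifs searched on both strands.

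IL6: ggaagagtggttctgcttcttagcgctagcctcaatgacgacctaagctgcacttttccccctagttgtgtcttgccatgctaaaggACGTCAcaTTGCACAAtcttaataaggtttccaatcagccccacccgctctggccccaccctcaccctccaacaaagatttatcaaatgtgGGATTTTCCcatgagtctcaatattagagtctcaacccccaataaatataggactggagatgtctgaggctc

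IL11: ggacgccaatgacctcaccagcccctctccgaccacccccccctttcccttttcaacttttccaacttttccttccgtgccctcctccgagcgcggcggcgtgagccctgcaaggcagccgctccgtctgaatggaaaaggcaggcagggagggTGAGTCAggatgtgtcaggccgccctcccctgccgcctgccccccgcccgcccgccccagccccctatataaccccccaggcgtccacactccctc

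STAT3: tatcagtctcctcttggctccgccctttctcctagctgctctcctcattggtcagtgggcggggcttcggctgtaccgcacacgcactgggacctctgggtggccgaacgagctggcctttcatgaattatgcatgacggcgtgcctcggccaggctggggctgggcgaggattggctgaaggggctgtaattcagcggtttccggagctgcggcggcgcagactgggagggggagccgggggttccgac

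SOCS3: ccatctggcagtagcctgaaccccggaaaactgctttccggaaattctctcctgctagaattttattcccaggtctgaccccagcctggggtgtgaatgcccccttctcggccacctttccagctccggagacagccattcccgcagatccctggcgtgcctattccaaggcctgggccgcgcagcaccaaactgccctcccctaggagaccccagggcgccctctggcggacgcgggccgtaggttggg

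The IL6 promoter held an NF-kB match (GGANTTNCC) as GGATTTTCC, 72 to 64 bases before the start. It also held a C/EBP match (TTGCNNAA) as TTGCACAA, 155 to 148 bases before the start, beside a cAMP response element core (TGACGT, here on the other strand). Of 35116 promoters of this length, 3.67% held the NF-kB motif, 9.05% the C/EBP motif and 7.1% the core element. The IL11 promoter held an AP-1 match (TGANTCA) as TGAGTCA, 96 to 90 bases before the start, a motif in 6.57% of promoters. The STAT motif TTCNNNGAA, in 6.57% of promoters, and the TATA motif TATAAA, in 10.7%, had no match in these 4 windows, which says only that those letters are absent from them. Promoters were listed for 9 of the 10 genes, at 14 start sites, all but LIF. The STAT motif was found at 2 of the 14, both among the 3 start sites of LIFR. No match overlapped another in the 4 windows, and a match is a description of letters, not of a bound site.

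All 10 genes were measured, that is, at least 1 probe set of each exceeded the floor, the 50th percentile of an array (28.4 in the stretched and 28.7 in the non-stretched array). Signals are intensities on a linear scale. Differences are given as the log2 signal of stretched minus that of non-stretched cells, with values under the floor raised to it, and each gene is represented by its brightest probe set. Of the 35 probe sets, 24 exceeded the floor in both arrays, 1 in stretched cells only, 1 in non-stretched cells only and 9 in neither. A change in transcript per cell and a change in the share of cells that carry it cannot be told apart in these bulk extracts.

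STAT3 was at least 2-fold lower, JAK1 and the ligand IL6 were at least 1.5-fold lower, and SOCS3 was at least 1.5-fold higher in stretched cells, as was the lower bound for IL11. LIF and the receptor chains IL6ST and LIFR were lower by less than 1.5-fold, and IL6R and OSMR differed by less than 0.1 on the log2 scale. In counts, 1 of the 10 genes was at least 2-fold lower and 0 were higher by that much, where 7.54% of the 13473 measured genes were lower and 7.79% higher by that much. At 1.5-fold, 3 of the 10 were lower and 2 higher, against 16.8% and 17.9% of measured genes. One of the higher genes is IL11, which exceeded the floor in stretched cells only and so could only lie above 0. Below 0 lay 7 of the 10 and above 0 the other 3, against 49.6% and 50.4% of measured genes, and the count below 0 was 8 when the arrays were centred on their 75th percentile, where OSMR crossed 0, and 6 with them centred on the spike-ins, where IL6R did. The median over the 10 genes was -0.51, against 0.0041 over all measured genes.

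**Figure D1:**
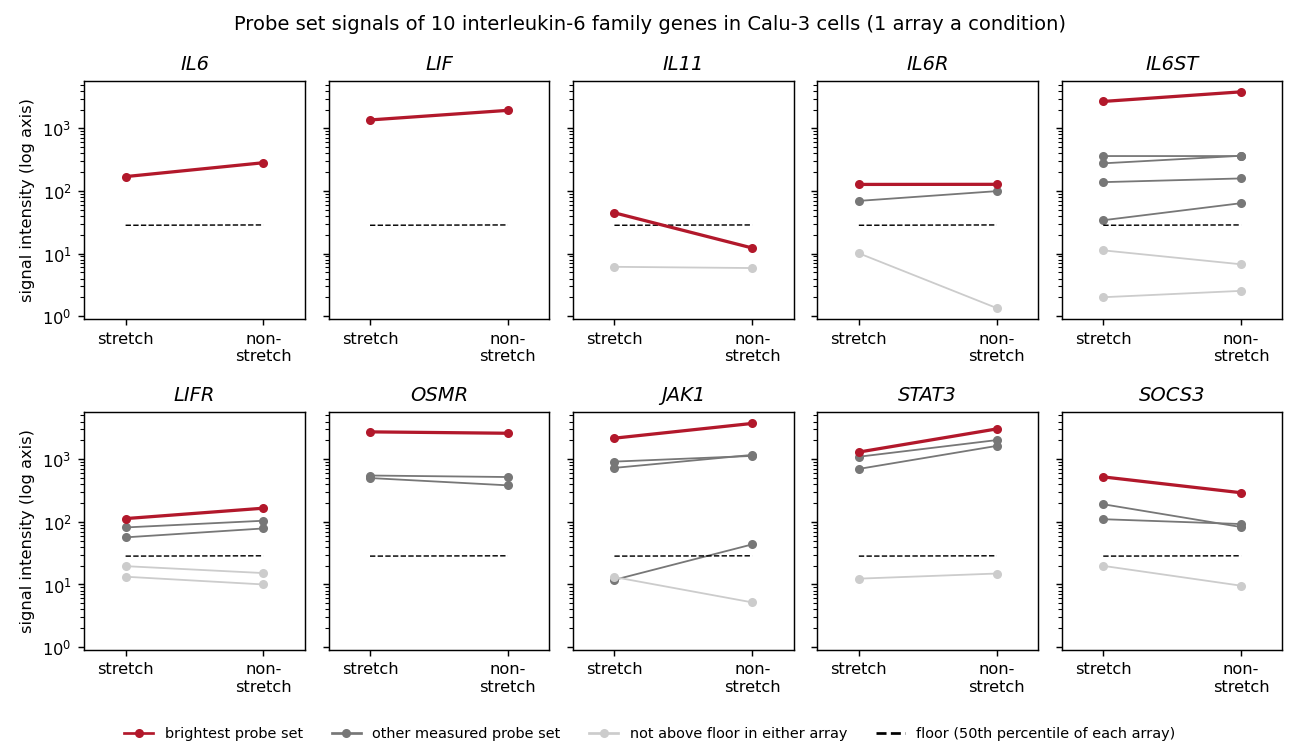
Signal intensity (log axis) of each of the 35 probe sets in the stretched and the non-stretched array, 1 panel a gene; red lines are the brightest probe set, dark grey lines other measured probe sets, light grey lines those above the floor (dashed) in neither array. The 3 measured STAT3 lines and the 4 measured JAK1 lines lie lower in the stretched array, and the 3 measured SOCS3 lines lie higher there.

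How far a single probe set can stray was estimated from the 2 brightest probe sets of each of 5818 genes, all above the floor in both arrays. For a single probe set the log2 difference had an SD of 0.36 over all of them, 0.50 where the mean signal was under 128, 0.38 between 128 and 512 and 0.26 from 512 up. This spread covers probe noise and isoforms and leaves out variation between cultures and labelling reactions. The brightest probe sets of 4 genes (IL6, SOCS3, STAT3 and JAK1) differed by more than 2 such SDs at the overall value of 0.36. IL6, at a mean signal between 128 and 512, no longer did so at the SD of 0.38 for that range.

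STAT3, which carries the signal from the receptor to the nucleus, had a signal of 1302 in the stretched array, against 3048 in the non-stretched array, by its brightest probe set. This is 2.34-fold lower (log2 difference -1.23). A second probe set, ending in _s_at and so able to bind related transcripts, read 700.4 in the stretched and 1632 in the non-stretched array (-1.22). Another read 1096 and 2023, a difference of -0.88. The 3 probe sets thus all lay lower in stretched cells. Among all measured genes, 687 (5.1%) were at least as far down. The remaining probe set was above the floor in neither array.

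JAK1, a Janus kinase that binds gp130, had a signal of 2170 in stretched and 3733 in non-stretched cells, 1.72-fold lower (log2 difference -0.78). Another probe set gave 727.6 in the stretched and 1173 in the non-stretched array (-0.69), and the next gave 916.8 and 1130 (-0.30). The dimmest measured probe set exceeded the floor in non-stretched cells only, at 43.7 against 11.9 in the stretched array, at least 1.54-fold lower. All 4 measured JAK1 probe sets were therefore lower in stretched cells, although they spread from -0.78 to -0.30 on the log2 scale. At least as far down as the brightest lay 11.1% of measured genes.

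SOCS3, the feedback inhibitor that STAT3 induces, differed the other way. Its brightest probe set had a signal of 522.2 in stretched and 291.7 in non-stretched cells, 1.79-fold higher (log2 difference 0.84). A second probe set read 191.1 in the stretched and 82.6 in the non-stretched array, 2.31-fold higher, and another, ending in _s_at and so able to bind related transcripts, read 110.2 and 92.3, 1.19-fold higher. All 3 measured probe sets lay above 0, over a wide range of 0.26 to 1.21 on the log2 scale. At least as far up as the brightest lay 10.8% of measured genes.

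Of the ligands, IL6, an inflammatory cytokine and a driver of the acute phase response, had a signal of 169.8 in stretched and 282.9 in non-stretched cells, 1.67-fold lower (log2 difference -0.74). It rests on 1 probe set, and under a floor set at the 75th percentile, which lies above its stretched signal, the difference was -0.18. LIF, which signals through LIFR and gp130, gave 1364 in stretched and 1942 in non-stretched cells, 1.42-fold lower (-0.51), also on 1 probe set. IL11, a cytokine linked to tissue remodelling, exceeded the floor in stretched cells only, at 44.8 against 12.3 in the non-stretched array, and was at least 1.56-fold higher. Its stretched signal lay not far above the floor, and its other probe set, ending in _s_at, read 6.15 in stretched and 5.88 in non-stretched cells, above the floor in neither. The direction for IL11 thus rests on a single dim probe set.

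Of the receptor chains, IL6ST (gp130) had a signal of 2695 in stretched and 3835 in non-stretched cells, 1.42-fold lower (log2 difference -0.51). Its other 4 measured probe sets differed by -0.90, -0.40, -0.20 and 0.0012, of which the first, with signals of 34.1 in stretched and 63.9 in non-stretched cells, was the dimmest. Those at -0.90, -0.40 and -0.20 end in _s_at. The probe set at 0.0012 read 361.6 in stretched and 361.3 in non-stretched cells, so the probe sets of this gene did not all lie on 1 side of 0. IL6ST was the only one of the 7 genes with at least 2 measured probe sets for which that was so, at the deposited scaling.

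LIFR, the LIF receptor, gave 112.7 in stretched and 165.2 in non-stretched cells, 1.47-fold lower (log2 difference -0.55), with its other measured probe sets at -0.36 and -0.47. These signals are low, and the SD of a single probe set was 0.50 under a signal of 128 and 0.38 just above it. OSMR, the oncostatin M receptor, had 2736 in stretched and 2601 in non-stretched cells, a difference of 0.07 that became -0.03 after centring each array on its 75th percentile. Its other probe sets were at 0.08 and 0.39. IL6R, the receptor that interleukin-6 binds first, had 127.4 in stretched and 127.8 in non-stretched cells, a difference of -0.0052, and a second probe set at -0.52 (69.5 in stretched, 99.5 in non-stretched cells). For IL6R and OSMR the brightest probe sets therefore showed little difference between these arrays.

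**Figure D2:**
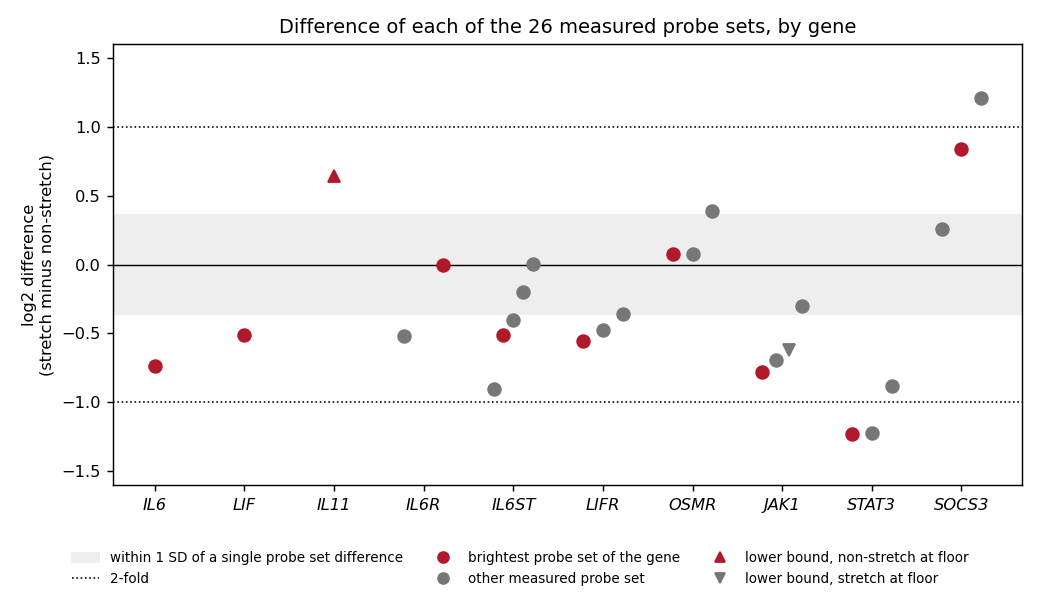
Log2 difference (stretch minus non-stretch) of each of the 26 measured probe sets, by gene; triangles are lower bounds with 1 array at the floor, the grey band is 1 SD (0.36) of a single probe set difference and dotted lines mark 2-fold. Probe sets of STAT3, JAK1 and LIFR lie below 0 and those of SOCS3 above 0; those of OSMR lie above 0 as deposited, and its brightest is at -0.03 after centring each array on its 75th percentile.

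Among the 26 measured probe sets, 18 lay below 0 and 8 above, 2 were at least 2-fold lower (both STAT3) and 1 was higher by that much (SOCS3). Of the 24977 measured probe sets of named genes, 46.7% lay below 0 and 53.3% above, 6.48% were at least 2-fold lower and 8.66% were higher by that much. The median over these probe sets was -0.44. Probe sets of a gene share their transcript and are not independent. The IL11 probe set above the floor in stretched cells only could only lie above 0. Likewise, the JAK1 probe set above it in non-stretched cells only could only lie below 0.

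**Figure D3:**
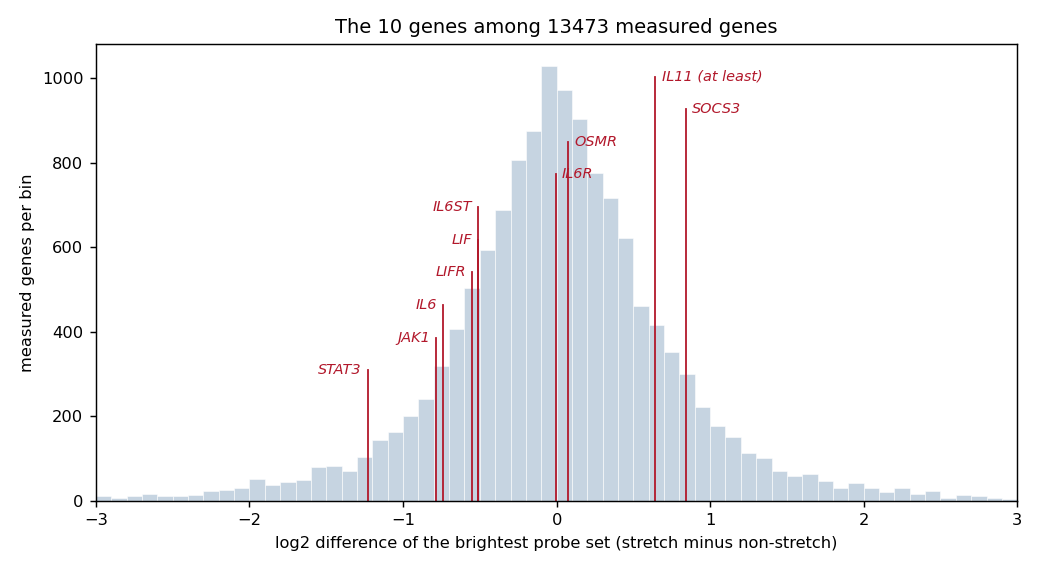
Number of measured genes (13473 in all) by log2 difference (stretch minus non-stretch) in bins of 0.1, with the 10 genes marked in red; the axis leaves out 59 genes beyond 3 in either direction. STAT3 at -1.23 lies furthest left and SOCS3 at 0.84 furthest right, within the central 90% of genes (-1.24 to 1.25), and IL11 is marked at its lower bound.

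In RefSeq's order of protein-coding genes, 4 pairs of neighbours joined a gene above to a relative, and in each pair the member named first lay below 0 and its neighbour above 0, except that OSMR lay at -0.03 after centring each array on its 75th percentile. On chromosome 17 STAT3 is next to STAT5A, another STAT factor, which was at 0.24, near the floor with signals of 36.7 in stretched and 31.0 in non-stretched cells. On chromosome 5 IL6ST is next to IL31RA, the interleukin-31 receptor chain, which gave 294.9 in stretched and 131.2 in non-stretched cells, 2.25-fold higher in 1 measured probe set. LIFR and OSMR, also neighbours on chromosome 5, were at -0.55 and 0.07, and OSMR lay at -0.03 after centring each array on its 75th percentile. On chromosome 22 LIF, at -0.51, is next to OSM (oncostatin M), at 0.15 near the floor. Apart from IL31RA, these neighbours differed by less than the SD of 0.36. How often neighbours differ in sign over all genes was not counted, so the pairs are a description.

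The other genes of the pathway were taken from 5 lists of 74 genes, of which 62 were measured, 9 at least 2-fold lower and 2 higher by that much, against 7.54% and 7.79% of measured genes. All 9 lower genes belong to the list of STAT3 targets. Of the other ligands and ligand partners, 3 of 8 were measured, 0 differed 2-fold and the median was 0.15, although 1 gene was at least 2-fold higher without a floor or under one at the 25th percentile. IL27, a cytokine better known from antigen-presenting cells, was at 0.21, OSM at 0.15, and CTF1 (cardiotrophin-1), which exceeded the floor in non-stretched cells only, was at least 1.13-fold lower. IL27 read 52.3 in stretched and 45.3 in non-stretched cells, OSM 35.9 and 32.4, so both were near the floor.

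All 6 other receptors and shedding proteases were measured, 1 was at least 2-fold higher (IL31RA) and 0 lower, with a median of -0.30. Under a floor at the 75th percentile, 4 of the 6 were measured and 0 were at least 2-fold higher. ADAM17 and ADAM10, the membrane proteases that release soluble interleukin-6 receptor, had signals of 1517 and 3811 in stretched and 2148 and 5266 in non-stretched cells. These are 1.42-fold and 1.38-fold lower, with all 3 probe sets of each below 0 (-0.77 to -0.50 for ADAM17, -0.47 to -0.34 for ADAM10). The brightest ADAM17 probe set ends in _x_at.

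Of the other JAK, STAT and SHP2 adaptor genes, 10 of 11 were measured and 0 differed 2-fold, with a median of 0.07. GAB1, a docking protein that recruits the phosphatase SHP2 to signalling complexes, was 1.74-fold lower, with its 5 measured probe sets between -0.80 and -0.30. SOS1, an activator of RAS, was at -0.53, with its other probe sets up to 0.05, and JAK3, near the floor, at -0.39. The kinases JAK2 and TYK2 were at 0.07 and 0.20, and STAT5B, named after its value was seen, at 0.12. STAT3 was at -1.23 and JAK1 at -0.78, whereas JAK2, TYK2, STAT5A and STAT5B were each within the SD of 0.36 of 0. After centring each array on its 75th percentile the list's median was -0.04.

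Of the feedback inhibitors and phosphatases, 15 of 16 were measured, 0 differed 2-fold, 2 were higher and 2 lower by 1.5-fold or more (against 17.9% and 16.8% of measured genes), with a median of 0.08. Under 4 of the 9 alternatives, 1 gene of this list was at least 2-fold lower. CISH, a SOCS family member known as a STAT5 target, was 1.95-fold lower by its brightest probe set, which ends in _x_at, and its probe sets ranged from -0.96 to 0.18. PIAS2, of a family that restrains STAT factors in the nucleus, was 1.74-fold higher by its brightest probe set, which ends in _s_at. Its 6 measured probe sets lay between 0.06 and 1.62. SOCS2, which restrains growth hormone signalling, was 1.69-fold higher, with both measured probe sets above 0. SOCS1, the closest relative of SOCS3 in the way it blocks Janus kinases, exceeded the floor in non-stretched cells only and was at least 1.31-fold lower (17.8 in stretched, 37.1 in non-stretched cells). Its brightest probe set also ends in _x_at.

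Of 33 genes listed as STAT3 targets in other cells, 28 were measured, 9 were at least 2-fold lower (32.1%, against 7.54% of measured genes) and 1 was higher by that much (3.57%, against 7.79%). The median was -0.40, against 0.0041 over all measured genes, and 19 of the 28 (67.9%) lay below 0, against 49.6%. Among the 19 are FGA, FGB, FGG and LBP, and FGB is also among the 9. These genes exceeded the floor in non-stretched cells only, so each could only lie below 0. The same filter applied to all measured genes. After centring the arrays on the spike-ins, 5 of the 28 were at least 2-fold lower, against 837 of 13473 measured genes. With _x_at and _s_at probe sets left out, 6 of 22 were, against 802 of 10532. Some acute phase genes were among those at least 2-fold lower. CRP (C-reactive protein) had 48.9 in stretched and 630.5 in non-stretched cells, 12.9-fold lower, and SERPINA1 (alpha-1-antitrypsin) had 3236 and 7323, 2.26-fold lower. LRG1, a secreted glycoprotein of the acute phase, was 2.16-fold lower, and FGB, the fibrinogen beta chain, which exceeded the floor in non-stretched cells only, was at least 2.05-fold lower in 1 probe set and by 0.13 on the log2 scale in its other. SERPINA3, with 8297 in stretched and 10685 in non-stretched cells, was 1.29-fold lower, HAMP was at -0.11 and A2M at 0.10. FGA, FGG and LBP exceeded the floor in non-stretched cells only, at least 1.23-fold, 1.35-fold and 1.14-fold lower. HP exceeded it in neither array, and SAA1 and SAA2 were not measured.

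The transcription factors at least 2-fold lower were CEBPD, IRF1 and BCL6. CEBPD, a C/EBP factor of the acute phase response, had 1146 in stretched and 3249 in non-stretched cells, 2.84-fold lower, and its second probe set was at -0.70. IRF1, an interferon response factor, was 2.19-fold lower, and BCL6, a repressor, 2.09-fold lower with its 3 probe sets between -1.28 and -0.10. The angiogenic factor VEGFA was 2.01-fold lower by its brightest and at most -1.01 on the log2 scale in each of its 4 probe sets, and the mucin MUC1 was 2.73-fold lower. In the other direction, BIRC5 (survivin), an inhibitor of cell death that also acts in mitosis, had 2007 in stretched and 356.0 in non-stretched cells, 5.64-fold higher. In all, 9 of the 28 lay above 0. BCL2L1 was 1.51-fold higher, with its 4 probe sets between 0.59 and 1.19, CCND1 was at 0.43 and MYC at 0.32. PIM1, PIM2, MCL1, TIMP1 and A2M lay between 0.10 and 0.22. The brightest probe sets of SERPINA1, FGG, LBP, CEBPD, VEGFA, MUC1, BIRC5, CCND1, MYC and MCL1 end in _s_at. Many of these genes answer to other factors as well, IRF1 and CRP among them, and the lists were drawn up with earlier results of these arrays known, so the counts are a description.

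**Figure D4:**
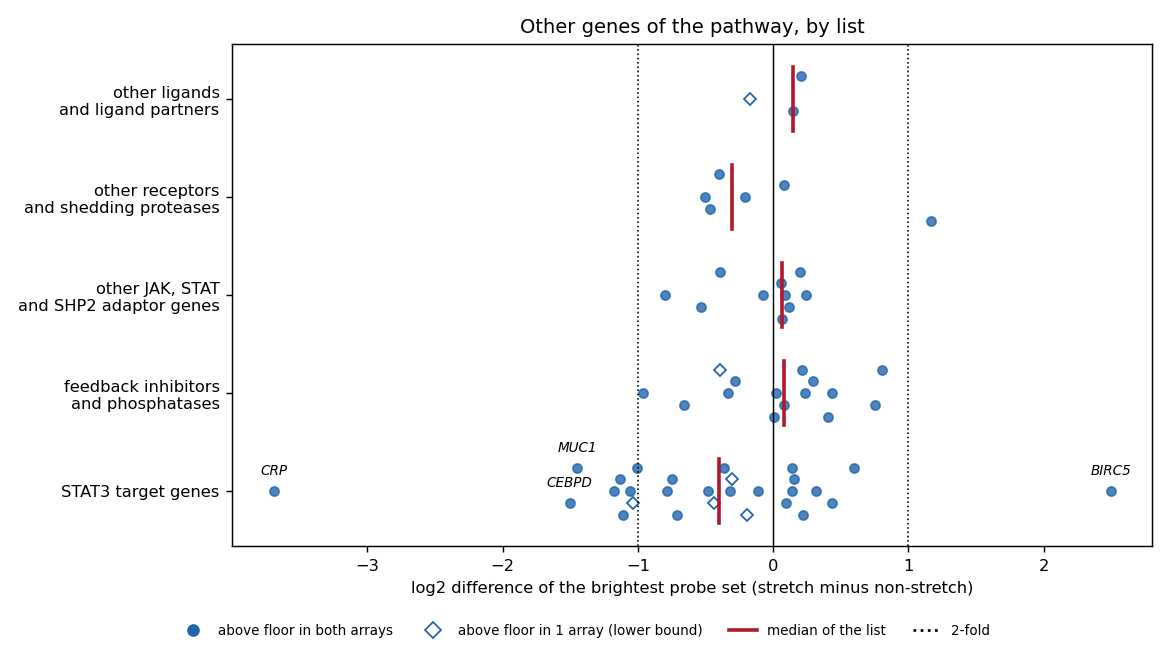
Log2 difference (stretch minus non-stretch) of the 62 measured genes of the 5 pathway lists by their brightest probe sets; red bars are medians, dotted lines 2-fold, and open diamonds genes above the floor in 1 array. The STAT3 target list spreads from -3.69 (CRP) to 2.49 (BIRC5) with a median of -0.40, while the medians of the other lists lie between -0.30 and 0.15; those of the JAK and STAT list and of the feedback list are under 0 after centring each array on its 75th percentile.

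The array signals carried epithelial markers, which are not particular to Calu-3 cells. All 10 epithelial markers exceeded the floor in both arrays, with signals summing to 58227 in stretched and 63502 in non-stretched cells, and 3 of them (ELF3, MUC1 and CFTR) were at least 2-fold lower; their part in the differences above was not tested. Fibroblast markers exceeded the floor in 2 of 8 in the stretched and 3 of 8 in the non-stretched array (sums 209.2 and 264.0), leukocyte markers in 3 of the 5 analysed here in each array (163.9 and 196.7) and endothelial markers in 1 of 4 in each (65.0 and 64.1). The leukocyte markers were not the same ones, since CD3E exceeded the floor in stretched cells only and CSF1R in non-stretched cells only. PTPRC, VWF, CDH5, TEK, COL3A1, LUM, THY1, PDGFRA and PDGFRB were above the floor in neither array. The 2 arrays' overall scaling moved with the choice of reference: 75th percentiles were 249.0 in the stretched and 231.1 in the non-stretched array (log2 difference 0.11), and 18 hybridisation spike-in probe sets had a median of -0.11. Either choice shifts all genes together, including the median of all measured genes, so the differences of the 10 genes relative to that median stay as given. Of the genes at least 2-fold different, 50.8% were higher as deposited, 61.2% with the arrays centred on the spike-ins and 41.2% with them centred on the 75th percentile.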

How the data were processed

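Total RNA (6 µg, Qiagen columns, per the labels' protocols) from 1 stretched and 1 non-stretched Calu-3 culture was measured on Affymetrix arrays. The table deposited by the authors holds 1 linear signal intensity per probe set and array for 54675 probe sets (62 controls). For the summarisation, scaling and detection calls, nothing is stated in the labels or the file. The arrays were taken as already on 1 scale, since their medians differed by -0.02 on the log2 scale. The platform annotation gave the gene names, with symbols updated to RefSeq through the gene ID. Of the non-control probe sets, 41091 had 1 gene (54 under an older symbol), 1801 several and 11721 none, and the last 2 classes were not used.

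Intensities were set to a floor at the 50th percentile of the array and converted to log2. With 1 array a group there was no test and no SD between cultures. A gene differed when its brightest probe set was at least 2-fold apart. The script was run on simulated data with 1 level of probe noise and changes larger than those of the 10 genes. That check does not bear on differences as small as theirs. The text names all 10 genes, each pathway gene at least 2-fold different and the 3 with the largest difference in each list; others serve comparison or as markers. The 10 genes and the lists were chosen with earlier results of these data known. Likeness of pattern across samples cannot be measured over 2 arrays. The 9 alternatives covered the floor, scaling, lowess trend (fraction 0.3) and choice of probe sets. Python 3.11.15, numpy 2.4.6, pandas 2.3.3, statsmodels 0.14.6 and matplotlib 3.10.9 were used.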

Additional observations from a re-analysis of the deposited data

How the results depend on the processing

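Under the 9 alternatives, every value available for STAT3, JAK1, SOCS3, LIF, IL6ST and LIFR kept its sign, with STAT3 between -1.34 and -1.11, JAK1 between -0.89 and -0.60 and SOCS3 between 0.72 and 0.95. STAT3 was the 1 gene at least 2-fold lower in all 9. Under a floor at the 75th percentile, IL6 was at -0.18 and 7 of the 10 were measured, since fewer probe sets exceed that floor. Of these 7, 3 were at least 1.5-fold different, a share that was not counted over all genes under that floor. At 2-fold, 0 of the 7 were higher and 1 was lower, against 550 and 397 of 8598 measured genes. Without any floor, or under one at the 25th percentile, IL11 was at 1.87 and was the 1 gene of the 10 at least 2-fold higher, because its non-stretched signal was no longer raised to the floor. Over all genes, 1447 of 17675 were at least 2-fold higher and 1540 lower under the 25th percentile floor. Without any floor, 2304 of 19775 were higher and 2374 lower. Of the STAT3 targets, 5 to 10 were at least 2-fold lower over the alternatives, out of differing numbers measured. With the arrays centred on the spike-ins, 5 of 28 were, against 837 of 13473 measured genes. Under the 75th percentile floor, 8 of 20 were, against 397 of 8598. The highest count, without any floor, was 10 of 30, against 2374 of 19775, and under the 25th percentile floor it was 10 of 28, against 1540 of 17675. No paired analysis was possible because each group has 1 array, and no replicate could be left out. Signals near the floor, as for IL11, limit what these arrays can show.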
